A study of Mus musculus with 7 samples.

Results

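Hormone-sensing luminal cells (HS cells) of the mouse mammary gland were taken as the cells that carry the name Luminal-HS in the deposited cell annotation, and they made up 2138 of 13684 cells (15.6%). They came from 7 nulliparous females of mixed background (FVB, 129 and C57BL/6J), all at diestrus, with 1 library per animal from the #4 glands after removal of the lymph nodes. Young mice were 3 to 4 months old (Young A, B and C) and aged mice 13 to 14 months old (Aged A, B, C and D), and the labels name no treatment or genetic alteration. The young mice held 422, 285 and 864 HS cells and the aged mice 162, 220, 93 and 92. Counts of all HS cells of a mouse were added up, which gave 736043 (Aged C) to 6118862 (Young C) unique molecular identifiers (UMIs, tags that count captured mRNA molecules) per mouse.

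The mammary epithelium has an outer layer of contractile myoepithelial cells and an inner luminal layer, and the luminal layer holds HS cells and alveolar (AV) cells, the latter being the source of milk in lactation. HS cells carry the receptors for estrogen, progesterone and prolactin and pass the hormonal signal to neighboring cells through secreted ligands such as amphiregulin, WNT4 and RANKL. A rare group of cells with markers of both luminal types was named HS-AV cells by the authors.

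Some features of the libraries bear on every comparison of ages below. Between 3.69% and 5.20% of the UMIs of the median HS cell of a mouse were mitochondrial, with all young mice above all aged mice. Median depth was 6588, 6641 and 7106 UMIs per HS cell in young mice and 7769.5, 9616.5, 7892 and 9453.5 in aged mice, a difference that did not pass the threshold (exact two-sided permutation test over the 35 divisions of 7 mice, p = 0.057, 0.103 after adjustment over the 9 measures tested). In 39.3% of aged and 0 young HS cells the deposited cell table gave more UMIs than the matrix held, by at most 18. Age and library processing therefore cannot be told apart. Scrublet called 4 HS cells doublets, and 101 of 13583 distinct cell barcodes occurred in more than 1 library, 2 of which belonged to HS cells.

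The 5 markers that define the type were high in HS cells of every mouse and low in the other epithelial types outside the HS-AV group. Prlr, the prolactin receptor, had 1349 ± 361 CPM (counts scaled to a common total per mouse and type) in HS cells (SD, n = 7 mice), against 98.4 ± 96.0 in AV and 24.1 ± 29.6 in myoepithelial cells. Pgr, the progesterone receptor, had 94.4 ± 14.1 CPM in HS and 7.22 ± 7.96 in AV cells. Esr1, the estrogen receptor alpha gene, had 40.2 ± 7.24 CPM in HS and 5.53 ± 3.99 in AV cells, and fibroblasts came next among the other types with 23.4 ± 7.88. Cited1, a transcriptional coregulator of the estrogen receptor, had 650.3 ± 252 CPM in HS and 10.9 ± 7.80 in AV cells. Prom1, which encodes the surface protein CD133, had 68.0 ± 22.2 CPM in HS and 3.31 ± 3.26 in AV cells. HS cells ranked first of the 12 types with enough cells for Cited1 and Prom1 and second, after HS-AV cells, for Prlr, Pgr and Esr1. HS-AV cells of the 3 young mice, the ones with at least 10 such cells, had 1774 ± 444 CPM of Prlr, 103 ± 4.95 of Pgr and 70.5 ± 44.6 of Esr1, ranges that overlap those of HS cells. In the luminal keratin Krt19 the order was HS cells with 5954 ± 364 CPM, HS-AV cells with 3270 ± 815 and AV cells with 1139 ± 403, and these 3 ranges did not overlap. The authors named the cells from clusters of the same counts, so these levels describe the type and were not tested.

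**Figure D1:**
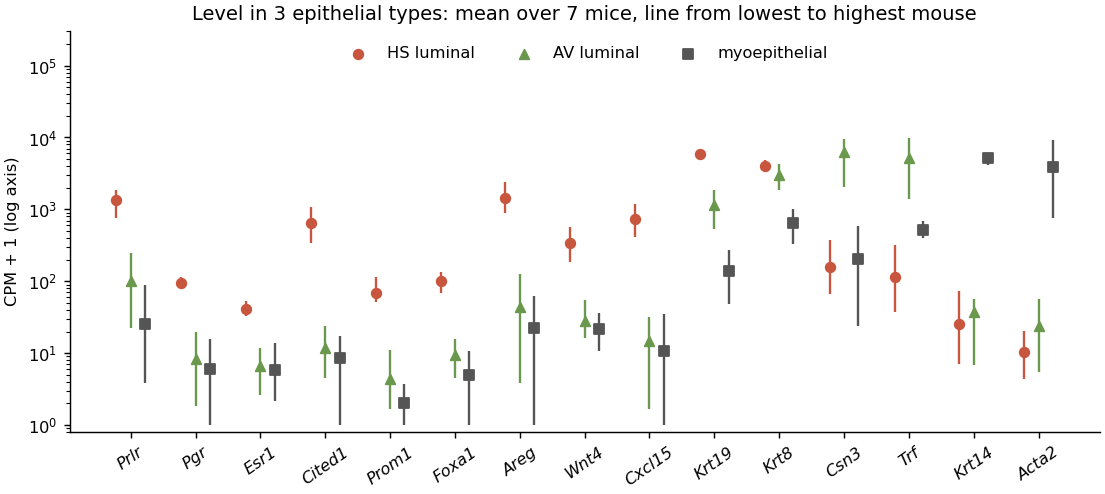
CPM plus 1 (log axis) of 15 genes in HS luminal, AV luminal and myoepithelial cells, with symbols for the mean over 7 mice and lines from the lowest to the highest mouse. The HS lines of Prlr, Pgr, Esr1, Cited1 and Prom1 lie wholly above those of the other 2 types, whereas Csn3 and Trf are highest in AV and Krt14 and Acta2 in myoepithelial cells.

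A marker UMI was not found in every HS cell, and whether such cells lacked the transcript or it was not captured was not tested. After each cell was thinned to 2000 UMIs, Prlr was detected in 89.7% of HS cells, Cited1 in 47.4%, Pgr in 18.4%, Prom1 in 11.1% and Esr1 in 7.81% (95% Wilson interval for Esr1 from 6.75%). In AV cells, where these markers were low, the shares were 6.72%, 1.43%, 0.664%, 0.519% and 0.705%. Before thinning, at a median of 7277 UMIs in HS and 6632 in AV cells, a UMI was found in 98.9% and 18.1% of cells for Prlr, 47.8% and 1.99% for Pgr, and 24.5% and 2.43% for Esr1. Intervals and limits cover counting error only.

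Beyond the markers, further genes set HS cells apart from both AV and myoepithelial cells. The measure was the ratio of HS CPM to the higher of the other 2 types in the same mouse, with 1 CPM added, among 2110 genes of at least 50 CPM in HS cells. Amphiregulin (Areg), an epidermal growth factor family ligand released by hormone-stimulated cells, had a median ratio of 129 over the 7 mice, ranging from 15.3 to 154. It was followed by R3hdml (98.2), the chemokine Cxcl15 (85.3), the stanniocalcin Stc2 (80.1), the cysteine dioxygenase Cdo1 (70.3) and the tetraspanin Tspan1 (66.5). The remaining places among the 15 highest went to Tph1 (62.2), Upk3a (56.6), the secreted glutathione peroxidase Gpx3 (54.5), Gipc2 (48.9), the fibrinogen chain Fgb (48.0), Sprr1a (46.0), the tryptophan-degrading enzyme Ido1 (44.2), the iodide carrier Slc5a5 (43.8) and Fxyd2 (42.6). In all, 64 genes had a median ratio over 10. Gpx3 was not confined to HS cells, since fibroblasts averaged 1610.3 CPM. Some ratios differed with age, for example 25.1 in young against 147 in aged mice in the median for Areg, while Arg2 went the other way (15.7 against 9.84). AV cells of young mice also held more UMIs of HS genes (Prlr in 18.9% of thinned AV cells of a young mouse on average, against 4.29% in aged mice). Whether free RNA in the droplets had a part in this was not tested.

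HS cells also differed among themselves. For 1414 genes, the variance of UMIs across the thinned HS cells of 1 mouse was divided by their mean, and the median over genes was 1.05, close to the value of 1 that counting alone gives. The metallothioneins Mt2 (median over mice 14.1) and Mt1 (13.4), which bind zinc and other metals, the actin-sequestering Tmsb4x (12.9), the surface protein Ly6d (7.46), the stress-responsive Jund (7.39) and Fos (7.07), and Gpx3 (6.91), Fgb (6.63) and Sprr1a (6.52) had the highest ratios after the nuclear RNA Malat1 (28.8). The ratio of Mt2 was between 5.88 and 9.40 in young and between 14.1 and 21.6 in aged mice, so the groups did not overlap, but its mean also differed (2.81 UMIs per thinned cell in young and 4.32 in aged mice), and this ratio can grow with the mean.

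HS cells were a smaller fraction of luminal cells in aged than in young mice. They were 58.4%, 54.9% and 62.6% of the HS, AV and HS-AV cells of Young A, B and C, and 15.8%, 13.2%, 9.28% and 10.1% of those of Aged A, B, C and D. Every young mouse lay above every aged mouse, with means of 58.6% ± 3.83 (SD, n = 3) and 12.1% ± 2.96 (SD, n = 4), a 4.85-fold difference. The exact two-sided permutation test gave p = 0.029, the smallest that 3 mice against 4 allow, and 0.064 after adjustment over the 9 measures. Relative to all captured cells the shares were 18.8%, 22.5% and 30.2% against 9.83%, 8.01%, 6.79% and 5.94%, also without overlap. With surface proteins in a separate cohort, the paper also reports a lower HS share of luminal cells in aged mice, by a smaller amount. Shares of a type within a mouse add up to 100%, so they do not give numbers of cells in the gland. The authors kept cells with at most 2500 genes, and HS cells were closer to that limit in aged mice. More than 2250 genes were found in 19.2%, 16.8% and 21.2% of HS cells of young mice and in 49.4%, 45.9%, 34.4% and 43.5% of those of aged mice, against 1.92% to 16.5% of AV cells in any mouse. How many HS cells the limit removed in each age group was not tested.

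**Figure D2:**
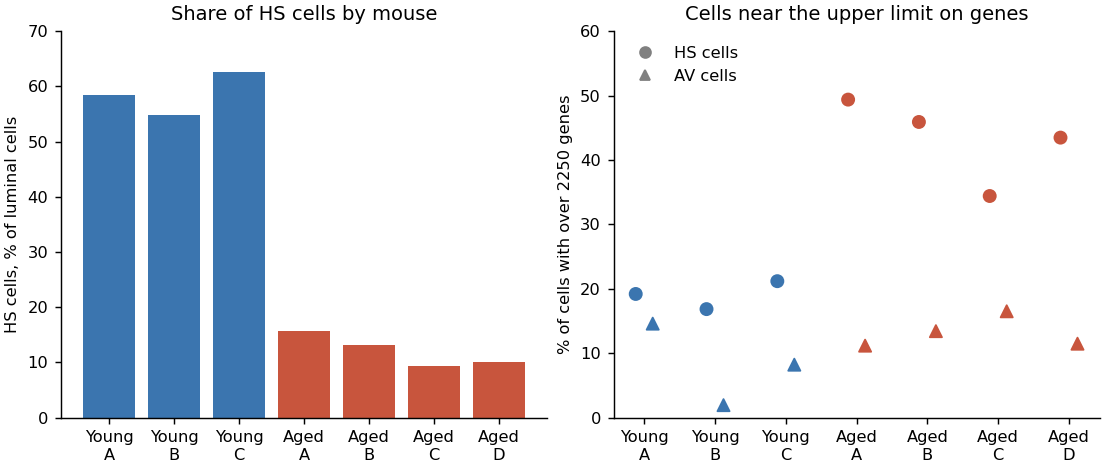
Left, bars from 0 of the percent of luminal cells that were HS cells in each mouse (young in blue, aged in red); right, the percent of HS cells (circles) and AV cells (triangles) with over 2250 genes in the same mice. The 3 young bars stand at 54.9% to 62.6% and the 4 aged bars at 9.28% to 15.8%, and the aged circles (34.4% to 49.4%) lie above the young circles (16.8% to 21.2%).

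The deposited phase placed 40.8%, 31.6% and 36.5% of young and 32.1%, 20%, 39.8% and 35.9% of aged HS cells in S or G2M, and the ranges overlapped (exact permutation test, p = 0.514). A thinned UMI of Mki67 or Top2a, genes of dividing cells, was found on average in 1.65% of HS cells of young and 1.77% of those of aged mice.

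Expression with age was compared on the summed counts with edgeR, where a call needed at least a 1.5-fold difference and an adjusted p (Benjamini-Hochberg) under 0.05. CPM in the following comparisons are scaled by TMM factors as well. Of 8457 genes tested, 332 were called higher in aged HS cells (3.93%) and 197 lower (2.33%), together 6.26%. The values of young and aged mice did not overlap for 1816 genes (21.5%), among them 516 of the 529 called. The median log2 difference was 0.02 over all genes tested and 1.19 in size over the called genes. The counts depended on single mice, with 86 higher and 48 lower without Young C, which held the most HS cells, 133 and 73 without Young A, 152 and 88 without Young B, 221 and 94 without Aged C, and 165 and 88 without Aged D, while 354 and 200 were called without Aged B. These p-values measure the spread between the 7 mice.

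Levels of HS cells were then set against those of other types, in aged mice for genes called higher (7 other types) and in young mice for genes called lower (9). For all tested genes the levels were taken over all mice. Each called set was thus ranked in the age group where it was high, so its shares are not directly comparable with those of all genes. HS cells were the highest of the compared cell types for 82 of the genes called higher (24.7%) and 62 of those called lower (31.5%), against 16.6% of all tested genes. At the other end, HS cells had under 10% of the level of the highest type for 30 genes called higher (9.04%) and 30 called lower (15.2%), against 4.79% of all tested genes. The part that RNA of those other cells had in the calls was not tested. With the level taken over all mice instead, leaving out genes under 10% of the highest other type left 298 called higher and 163 lower, an alternative chosen after seeing the data.

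Tph1, which encodes the tryptophan hydroxylase that starts serotonin synthesis outside the brain, and Arg1, the arginase that splits arginine into ornithine and urea, were both higher in aged HS cells. They are the genes that the study singles out in these cells, on the same libraries. For ARG1 the paper also stained the protein in tissue of a separate cohort and reports more of it in aged HS cells. Tph1 (chr7:46644641-46672537, minus strand, GRCm38) had 145, 26.9 and 40.9 CPM in Young A, B and C and 324, 257, 362 and 337 in Aged A, B, C and D. All aged mice lay above all young mice, of which Young A stood closest to them, and the log2 difference was 2.17 (SE 0.47, edgeR adjusted p = 0.0238). Without Young A it was 3.20, and the call was lost without Young B, Young C, Aged C or Aged D (adjusted p up to 0.0972). Arg1 (chr10:24915221-24927484, minus strand) had 40.1, 53.3 and 8.53 CPM in young and 264, 258, 264 and 198 in aged mice, a log2 difference of 2.92 (SE 0.47, adjusted p = 0.00738) that was called without any 1 mouse. In AV cells neither gene passed the test (log2 differences of -0.20 for Tph1 and -0.28 for Arg1), and the age difference of HS cells exceeded that of AV cells by 2.25 for Tph1 (interaction test of edgeR, adjusted p = 0.0283) and by 3.58 for Arg1 (adjusted p = 0.00378).

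The share of cells with a UMI rises both with the number of expressing cells and with the level per cell, which it cannot tell apart. After thinning, Tph1 was detected in 16.1%, 4.91% and 5.09% of HS cells of young mice and 33.3%, 22.3%, 37.6% and 27.2% of those of aged mice, and Arg1 in 5.45%, 7.37% and 1.27% against 26.5%, 30.9%, 32.3% and 27.2%. For both genes the age groups did not overlap (exact permutation test, p = 0.029 each, adjusted 0.064). No mouse had either gene in more than 0.986% of AV cells. Both transcripts were found together in 0.711%, 0.351% and 0% of young HS cells and in 6.79%, 9.55%, 7.53% and 6.52% of aged ones. In aged mice that made 7.60% of cells on average, near the 8.81% that the product of the separate shares gives, and the observed share was above the product in 1 of 4 mice. Across types, 13.5% of all HS cells, 8.79% of HS-AV cells and 0.436% of AV cells had a Tph1 UMI, and the shares for Arg1 were 10.3%, 4.03% and 0.456%.

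The other steps of these pathways were seen in part. Of 20 genes of serotonin and arginine metabolism 15 were tested, and 4 rose (26.7%, against 3.93% of all genes tested), namely Tph1, Arg1, Maoa and Oat, while none fell. The rise of Tph1 and Arg1 in these libraries was known beforehand from the study, so this share is a description only. The median log2 difference of the 15 was 0.13, against 0.02 over all genes. Maoa, the monoamine oxidase that breaks down serotonin, had 23.4, 21.6 and 12.7 CPM in young and 41.7, 35.8, 45.6 and 58.4 in aged mice (log2 difference 1.248, SE 0.26, edgeR adjusted p = 0.0202), and Oat, which turns ornithine into a proline precursor, differed by 0.68 (SE 0.16, adjusted p = 0.0327). The call of Maoa was lost without Young C or Aged D and that of Oat without any 1 mouse but Aged A (adjusted p up to 0.128). No UMI of Ddc, the decarboxylase of the second step of serotonin synthesis, or of Tph2 was found in HS cells of any mouse, and the serotonin transporter Slc6a4 was counted in Young C alone at 0.163 CPM. Arg2, the mitochondrial arginase, had 237, 172 and 191 CPM in young and 95.6, 121, 166 and 167 in aged mice and did not pass the test (adjusted p = 0.139).

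Several of the largest rises concerned genes that were nearly confined to HS cells among the types measured. Upk3a, a uroplakin known from the lining of the bladder, lies at chr15:85017141-85022547 on the plus strand. It had 6.34, 44.8 and 8.37 CPM in HS cells of young and 246, 221, 556 and 481 in those of aged mice, with the lowest aged mouse far above the highest young one (log2 difference 4.36, SE 0.65, edgeR adjusted p = 0.00536, and 5.63 without Young B). Thinned HS cells with a Upk3a UMI were 0.711%, 4.21% and 1.50% in young and 16.7%, 15.5%, 19.4% and 16.3% in aged mice, and AV cells never exceeded 0.962%. The age difference exceeded that of AV cells by 5.27 on the log2 scale (adjusted p = 0.000998).

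Ang4 and Ang5, secreted ribonucleases of the angiogenin family and paralogs of each other, had no count in HS cells of young mice. Ang4 had 225, 56.4, 67.7 and 726 CPM in Aged A, B, C and D and Ang5 199.6, 54.3, 49.8 and 662, so Aged A and D had the highest levels of both. Aged HS cells held 997 and 898 UMIs of them (edgeR adjusted p = 0.00739 and 0.00849). Against a floor of 3 counts over the young group, the aged mean was at least 963-fold higher for Ang4 and 865-fold for Ang5. These bounds are for the group mean and need not hold for a single mouse. How the counting treated reads that match both paralogs was not tested. The fitted log2 difference of Ang4 was 12.22 with all mice and 11.18 without Aged D, and that of Ang5 12.06 and 10.99. An Ang4 UMI was found in 27.8%, 8.64%, 2.15% and 39.1% of thinned aged HS cells and in at most 0.553% of AV cells of an aged mouse. The interaction with AV cells did not pass the test for either gene (adjusted p = 1.00), since AV cells of young mice had no count either.

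Dcn, the gene of the collagen-binding proteoglycan decorin (chr10:97479609-97518143, plus strand), moved in opposite directions in HS cells and their neighbors. In HS cells it had 78.4, 51.7 and 70.5 CPM in young and 479.7, 319, 1012 and 2048 in aged mice, a log2 difference of 3.84 (SE 0.58, edgeR adjusted p = 0.00569, and 3.15 without Aged D). It fell by 3.15 in AV and by 2.01 in myoepithelial cells on the log2 scale and differed by 0.18 in fibroblasts, where it was most abundant with 10641 CPM in young and 11392 in aged mice. The interaction was 6.71 against AV cells (adjusted p = 8.99e-07) and 5.37 against myoepithelial cells (adjusted p = 8.65e-06). HS cells of aged mice had 1837% to 11220% of the AV level in the same mouse, against 34.7% to 90.3% in young mice. Thinned HS cells with a Dcn UMI were 12.6%, 5.26% and 8.22% in young and 37.7%, 19.1%, 54.8% and 62.0% in aged mice, while AV cells reached 14.9% in a young and 4.77% in an aged mouse. Of the 9 fibroblast markers, Dcn included, the summed level in HS cells was 69.0 to 187 CPM in young and 290.0 to 1835 in aged mice, and Dcn alone made up most of the latter. The collagen genes of this list were too low to test, Col1a1 having 18.2, 3.18 and 12.9 CPM before TMM scaling in young mice and 1.63, 0.973, 0 and 0 in aged mice. Col1a2 and Col3a1 were likewise at 0 to 2.44 CPM in every aged mouse, and the fibronectin gene Fn1, the other fibroblast marker tested, was not called (-1.73, adjusted p = 0.124).

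Further genes rose from low levels. Il33, an alarmin cytokine, had 1.00, 3.69 and 14.2 CPM in young and 64.5, 62.9, 40.1 and 57.1 in aged HS cells (log2 difference 2.93, SE 0.52, edgeR adjusted p = 0.0114, and 4.70 without Young C), and fibroblasts were the highest other type with 107 CPM in young and 53.4 in aged mice. Pcp4, a calmodulin-binding peptide, had 20.4, 19.5 and 42.8 CPM in young and 137, 77.0, 148 and 328 in aged mice (log2 difference 2.57, SE 0.46, adjusted p = 0.0121). Rhox5, a homeobox gene of the X-linked reproductive cluster, had 3.00, 1.05 and 0.965 CPM in young and 41.7, 15.7, 29.0 and 11.9 in aged mice (log2 difference 3.93, SE 0.54, adjusted p = 0.00318, and 4.56 without Young A). The named genes seen in 1 to 3 molecules among young HS cells were Pde6a, a subunit of the rod phosphodiesterase (3 against 89 UMIs, ratio per UMI 65.5 with a counting interval of 21.7 to 324), Mdga2, a neuronal adhesion protein (1 against 62, ratio 137, 23.7 to 5495), and Pianp (1 against 152, ratio 336, 59.4 to 13346). Their fitted log2 differences depended on single mice, being 5.86 for Pde6a with all mice but 8.36 without Young A, 4.82 without Young C and 5.10 without Aged A, 6.59 for Mdga2 but 8.04 without Young B and 5.64 without Young C, and 7.75 for Pianp but 8.62 without Young C. Epb41l3, a membrane skeleton protein (log2 difference 4.33, adjusted p = 0.00361, and 5.07 without Young A and 3.56 without Young C), Clca3a1 (4.14, adjusted p = 0.00793, and 3.27 without Aged A) and the class II chaperone H2-DMb2 (5.07, adjusted p = 0.00182) also rose. Clca3a1 and H2-DMb2 had their highest levels in vascular endothelial and dendritic cells of aged mice.

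The promoters of 4 of the named genes are shown because the results above and below turn on them: Tph1, Upk3a and Ang4, which rose with age and were nearly confined to HS cells, and the ligand Calca, which was high in 1 young mouse. They are RefSeq sequences of the GRCm38.p6 build, from 250 bases before to 50 after the start of the gene, written 5′ to 3′ along the strand of the gene. The promoters of Arg1 and Dcn are named only.
Tph1, chr7:46672488-46672787, minus strand: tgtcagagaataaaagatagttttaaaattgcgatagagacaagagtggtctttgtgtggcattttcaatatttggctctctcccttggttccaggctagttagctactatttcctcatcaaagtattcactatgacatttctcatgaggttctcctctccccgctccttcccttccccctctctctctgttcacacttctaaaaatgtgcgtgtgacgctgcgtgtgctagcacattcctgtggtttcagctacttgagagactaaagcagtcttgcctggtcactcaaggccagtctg
Upk3a, chr15:85016891-85017190, plus strand: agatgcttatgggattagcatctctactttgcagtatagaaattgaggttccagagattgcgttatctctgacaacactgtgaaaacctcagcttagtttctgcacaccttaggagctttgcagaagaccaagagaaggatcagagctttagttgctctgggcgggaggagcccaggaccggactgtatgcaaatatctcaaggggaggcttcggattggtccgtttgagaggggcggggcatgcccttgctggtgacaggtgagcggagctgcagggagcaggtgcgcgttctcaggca
Ang4, chr14:51773541-51773840, minus strand: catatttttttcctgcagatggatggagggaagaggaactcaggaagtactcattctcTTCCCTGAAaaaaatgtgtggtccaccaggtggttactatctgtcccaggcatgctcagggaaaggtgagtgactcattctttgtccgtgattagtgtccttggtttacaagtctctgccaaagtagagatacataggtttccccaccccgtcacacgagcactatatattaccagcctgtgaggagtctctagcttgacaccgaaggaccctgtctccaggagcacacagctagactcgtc
Calca, chr7:114636308-114636607, minus strand: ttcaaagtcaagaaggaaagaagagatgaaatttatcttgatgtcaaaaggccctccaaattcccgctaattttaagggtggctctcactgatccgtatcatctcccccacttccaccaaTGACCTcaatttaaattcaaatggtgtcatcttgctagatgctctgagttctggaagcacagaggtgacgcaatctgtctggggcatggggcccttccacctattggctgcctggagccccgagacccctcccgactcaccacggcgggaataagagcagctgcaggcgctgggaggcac
Capitals mark matches on either strand to 3 motifs, TTCNNNGAA (the site of STAT factors, which act below the prolactin receptor), AGGTCA (the estrogen receptor half-site) and AGAACA (the half-site of the progesterone and glucocorticoid receptors). The windows of Tph1 and Upk3a held none of them, that of Ang4 held 1 STAT match and that of Calca 1 AGGTCA match on the opposite strand. Of 17999 promoters of this length, 8.10% held the first motif, 14.6% the second and 16.8% the third, so single matches are common. A match is a description of the letters and not a shown binding site.

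**Figure D3:**
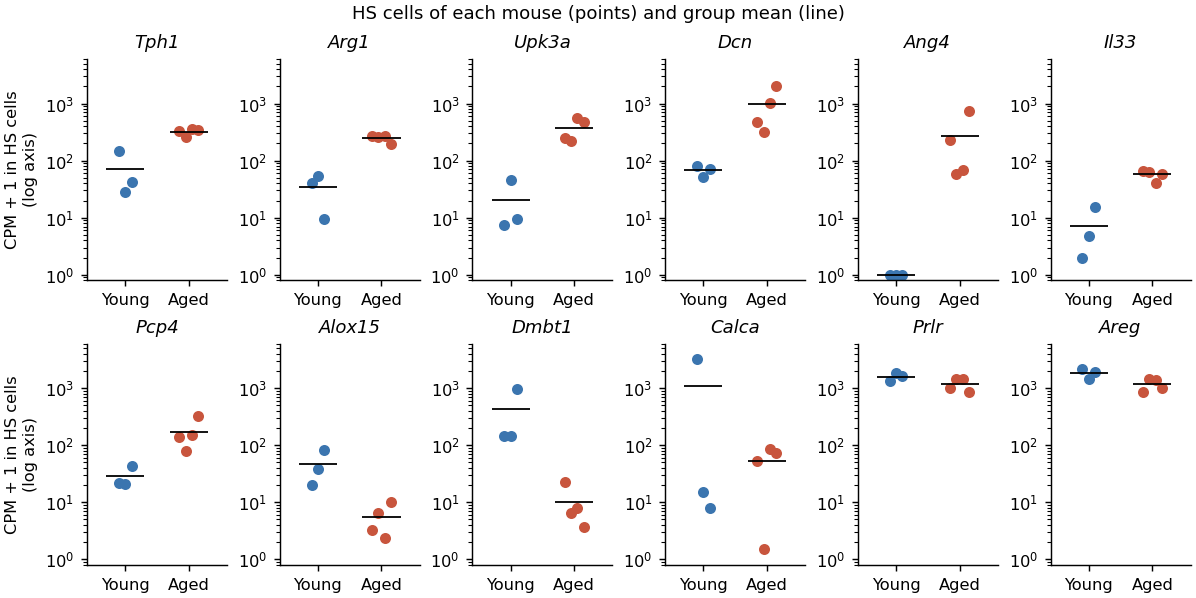
CPM plus 1 (log axis, TMM-scaled) of 12 genes in the HS cells of each young (blue) and aged (red) mouse, with a line at the group mean. Tph1, Arg1, Upk3a, Dcn, Ang4, Il33 and Pcp4 are higher in each aged than in each young mouse, Alox15 and Dmbt1 are lower, Calca is high in 1 young mouse, and Prlr and Areg overlap between ages.

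Whether the genes that rose did so in the same aged HS cells was looked at by comparing detection of pairs with the product of their shares in the same mouse, over 21 pairs of 7 genes, as a description of sparse counts. Upk3a and Dcn were found together in 10.7% of thinned cells on average against a product of 7.49%, above it in 4 of 4 aged mice (51 cells). Tph1 and Pcp4 were found together in 4.08% against 2.30%, above in 4 of 4 mice (19 cells), and Pcp4 and Il33 in 1.46% against 0.349%, also above in 4 of 4 but in only 7 cells. Below the product in 4 of 4 mice were Arg1 with Dcn (10.7% against 12.6%), Arg1 with Pcp4 (1.23% against 2.15%, 6 cells), Dcn with Ang4 (8.63% against 9.38%) and Dcn with Il33 (1.43% against 2.12%, 7 cells). Tph1 with Dcn (12.6% against 13.6%) lay below it in at least 3 of 4 mice. Both directions were thus seen among the 21 pairs.

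Genes lower in aged HS cells included secreted and lipid-related products of the epithelium. Dmbt1, a mucosal scavenger receptor, had 141, 142 and 981 CPM in young and 22.01, 5.43, 6.91 and 2.65 in aged mice (log2 difference -5.42, SE 0.80, edgeR adjusted p = 0.0049), and it was -3.84 without Young C and -6.37 without Aged A. DESeq2 did not call Dmbt1. In AV cells it fell by 8.32 on the log2 scale. Alox15, a lipoxygenase that makes lipid mediators from polyunsaturated fatty acids, had 19.4, 37.4 and 81.3 CPM in young and 2.28, 5.43, 1.38 and 9.29 in aged mice (log2 difference -3.37, SE 0.58, adjusted p = 0.00944, and -2.61 without Young C). It rose by 2.58 in AV cells, and the interaction was -6.20 (adjusted p = 1.36e-06). Fermt1, a kindlin that activates integrins, had 26.7, 53.3 and 38.0 CPM in young and 3.04, 14.1, 1.38 and 0 in aged mice (log2 difference -2.64, SE 0.55, adjusted p = 0.0208), with -4.43 without Aged B and the call lost without Young B or Young C (adjusted p up to 0.0687). It rose by 1.55 in myoepithelial cells, and the age difference of HS cells was lower than theirs by 4.16 and lower than that of AV cells by 2.44. Sbp, a spermine-binding secretory protein, had 158, 19.5 and 28.6 CPM in young mice and 3 UMIs in aged mice in all (ratio per UMI 104, counting interval 35.4 to 505). Its fitted log2 difference was -6.64 with all mice, -5.16 without Young A and -10.33 without Aged B.

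Most of the other named genes that fell are typical of blood, vessel, stromal or immune cells. The beta globin Hbb-bs had 7.68, 855 and 246 CPM in young and 3.04, 0.543, 0 and 2.65 in aged mice (log2 difference -7.87, edgeR adjusted p = 0.0121), with Young B far above the others, and -6.36 without Young B and -8.57 without Aged A. The fibroblast genes Igfbp6 (221 against 2 UMIs, ratio 50.03, interval 13.7 to 416), Pi16 (231 against 2, ratio 52.3, 14.3 to 434) and Has1, a hyaluronan synthase (log2 difference -3.46), reached 3873, 3032 and 1654 CPM in fibroblasts of young mice. The vessel genes Gpihbp1 (-3.68), Rbp7 (-3.65) and Cd36 (-3.20) reached 2594, 3646 and 3116 CPM in vascular endothelial cells of young mice, Retnla (-4.00) 20859 CPM in Ma macrophages, H2-Eb1 (-3.19) 12686 CPM in Mb macrophages and Ifi27l2a (105 against 2 UMIs, ratio 23.8, 6.42 to 199) 2767 CPM in Ma macrophages. The calls of Has1 (without Young C), Rbp7 (without Aged A or Aged C) and Cd36 (without any 1 mouse but Young C and Aged A) were lost, with adjusted p up to 0.0786. Retnla was at -8.92 without Aged A and -3.35 without Aged B, Has1 at -4.84 without Aged A and -2.81 without Aged B, Cd36 at -4.06 without Aged A, Gpihbp1 at -4.43 and Rbp7 at -4.41 without Aged D, Pi16 at -8.42 without Aged A (-5.18 with all mice) and Ifi27l2a at -4.99 without Aged D (-4.31). Of the marker lists of these cells, Fabp4, a fatty acid carrier of vessels (-2.89, adjusted p = 0.00631), and H2-Aa, a class II chain (-2.42, adjusted p = 0.0123, lost without Young C at 0.0687), were the endothelial and immune members called lower, and none of these 2 kinds was called higher. They were 1 of 4 endothelial and 1 of 3 immune markers tested (25% and 33.3%, against 2.33% of all genes tested). Summed over 11 endothelial and pericyte markers, HS cells had 160 to 386 CPM in young and 57.1 to 110 in aged mice, and over 11 immune markers 82.2 to 107 against 8.15 to 50.6. The part that RNA of these cells had in the calls was not tested.

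None of the receptors and markers that define HS cells passed the test of age. Prlr had 1314, 1826 and 1639 CPM in young and 997, 1427, 1426 and 848 in aged mice, with overlapping ranges (log2 difference -0.44, SE 0.22, edgeR adjusted p = 0.256). Pgr had 79.4, 104 and 112 CPM against 90.3, 116, 77.4 and 88.9 (-0.07, SE 0.18, adjusted p = 0.864). Esr1 had 37.4, 32.2 and 38.0 CPM against 48.6, 39.6, 48.4 and 38.5, without overlap but with a log2 difference of only 0.28 (SE 0.17, adjusted p = 0.346). Cited1 (0.62, SE 0.30, adjusted p = 0.234) and Prom1 (0.63, SE 0.26, adjusted p = 0.172) did not pass the test either. The luminal keratins Krt8 (-0.10), Krt18 (-0.05) and Krt19 (0.13) were not called, nor was any of the 15 keratin and junction genes tested (median log2 difference -0.05). In thinned cells Prlr was detected in 90.0%, 95.1% and 91.5% of young and 83.3%, 86.8%, 92.5% and 68.5% of aged HS cells (exact permutation test, p = 0.171), Pgr in 19.4%, 19.6% and 18.6% against 13.6%, 23.2%, 11.8% and 11.96% (exact p = 0.229) and Esr1 in 6.87%, 8.07% and 7.64% against 11.7%, 5.00%, 14.0% and 6.52% (exact p = 0.486).

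Of 20 hormone receptors and coregulators 19 were tested, 1 rose (5.26%, against 3.93% of all genes tested) and none fell, with a median log2 difference of 0.22. The gene called was Pgrmc1, a membrane-associated heme protein named for progesterone binding, with 101, 151 and 116 CPM in young and 244, 229, 216 and 254 in aged mice (log2 difference 0.95, SE 0.17, edgeR adjusted p = 0.0123, lost without Young A or Young C at up to 0.0709). The others lay between -1.20 (Greb1, an estrogen receptor cofactor, adjusted p = 0.086) and 0.69 (Ghr, the growth hormone receptor). Of 16 luminal transcription factors tested 1 fell (6.25%, against 2.33% of all genes tested) and none rose. It was Tbx3 (79.8, 51.2 and 83.4 against 47.8, 41.8, 33.2 and 30.5 CPM, log2 difference -0.88, SE 0.21, adjusted p = 0.0372), and the call was lost without Young A, Young C, Aged C or Aged D (adjusted p up to 0.159). Foxa1, the pioneer factor of the estrogen receptor, had a log2 difference of 0.61 (adjusted p = 0.113) and Gata3, the luminal fate regulator, -0.03. None of 10 genes of the prolactin JAK-STAT pathway was called, and their median was 0.01. The feedback inhibitor Socs2, with 69.8, 43.8 and 15.3 CPM in young and 187, 68.4, 113 and 177 in aged mice, came nearest (log2 difference 1.69, SE 0.47, adjusted p = 0.0576), while the kinase Jak2 was at 0.12 and the transcription factor Stat5a at 0.03.

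Among the paracrine ligands, 1 of 15 tested fell (6.67%, against 2.33% of all genes tested) and none rose (median 0.07). It was the chemokine Cxcl12, which had 10.7, 36.4 and 17.4 CPM in young and 4.55, 2.71, 5.53 and 6.64 in aged HS cells (log2 difference -2.21, SE 0.49, edgeR adjusted p = 0.0264), against 677 CPM in pericytes, its highest type in young mice, and its call was lost without any 1 mouse but Young A (adjusted p up to 0.0602). Areg had 2195, 1427 and 1905 CPM in young and 852, 1436, 1397 and 992 in aged mice and missed the threshold (log2 difference -0.66, SE 0.23, adjusted p = 0.107). Detection of Areg in thinned cells was 87.0%, 63.5% and 72.6% in young against 54.3%, 57.3%, 58.1% and 51.1% in aged mice, ranges that do not overlap. Wnt4 (log2 difference 0.54, adjusted p = 0.394), Ptn (pleiotrophin, 0.63, adjusted p = 0.0897), Stc2 (0.92, adjusted p = 0.0774) and Cxcl15 (0.37, adjusted p = 0.567) were not called. The other 7 ligands were too low to test, Tnfsf11 among them, the gene of RANKL.

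The ligand genes Calca and Tnfsf11 were high in HS cells of Young A alone. Calca, the calcitonin gene, had 3288 CPM in Young A but 14.2 in Young B and 6.92 in Young C, against 51.6, 0.543, 84.3 and 71.7 in aged mice, so the age groups overlapped in spite of a log2 difference of -4.49 (SE 1.67, edgeR adjusted p = 0.129). A Calca UMI was present in 75.6% of the thinned HS cells of Young A and in 0.454% to 8.602% of those of every other mouse, and AV cells of Young A reached 11.1%. Tnfsf11 had 41.5 CPM, before TMM scaling, in Young A, none in Young B and C, and at most 5.91 in an aged mouse. Of the steroid-responsive genes, Fkbp5 (9.47, 1.06 and 1.14 CPM before TMM scaling in the young mice) and Zbtb16 (34.6, 19.6 and 10.5) were also highest in Young A within the young group. Other genes went the other way, since the steroid-responsive Sgk1 and the receptor genes Pgr and Prlr were lowest in Young A within the young group. Calca, Tnfsf11, Fkbp5 and Zbtb16 were picked out after their values were seen, and the paper gives diestrus as the stage of all mice.

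Of 17 steroid-responsive genes tested, 2 rose (11.8%, against 3.93% of all genes tested) and 1 fell (5.88%, against 2.33%), with a median of 0.46. Sgk1, a kinase induced by corticosteroids, had 154, 234 and 179 CPM in young and 393, 246, 475 and 439 in aged HS cells (log2 difference 1.04, SE 0.24, edgeR adjusted p = 0.0312). Ddit4, an inhibitor of mTOR signaling induced by stress and glucocorticoids, differed by 1.10 (SE 0.22, adjusted p = 0.0195), and Igfbp5, a growth factor binding protein, by -1.54 (SE 0.37, adjusted p = 0.0372). The 3 calls were lost without 1 of the young mice, Young C in each case, and for Sgk1 and Igfbp5 also without Aged D (adjusted p up to 0.160). Among 9 surface markers tested 1 rose (11.1%, against 3.93% of all genes tested). It was Cd55, an inhibitor of complement (1.43, adjusted p = 0.0487, lost without any 1 mouse but Aged A at up to 0.129).

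Part of the NF-kB list was higher in aged HS cells. Of 14 tested genes of NF-kB signaling, cytokines and chemokines, 7 rose (50%, against 3.93% of all genes tested), none fell, and the median log2 difference was 1.37. Nfkbia, the inhibitor of NF-kB, had 861, 993 and 806 CPM in young and 2513, 1806, 2445 and 2150.4 in aged mice (1.33, SE 0.18, edgeR adjusted p = 0.00318). The feedback gene Tnfaip3 had 3.00, 5.27 and 5.15 CPM against 36.4, 14.6, 17.97 and 29.2 (2.42, SE 0.37, adjusted p = 0.00606). The chemokines Cxcl1 (1.77), Cxcl2 (2.11) and Cxcl16 (1.73), the granulocyte growth factor Csf3 (1.41) and Nfkbiz (1.45) also rose, with adjusted p between 0.0206 and 0.0428, and these 5 calls were lost without Young B and without Aged D (adjusted p up to 0.112), and Cxcl2 was at 3.08 without Young C. The rise was not particular to HS cells. In myoepithelial cells Cxcl1, Cxcl2 and Csf3 differed by 5.74, 6.32 and 6.19, and the interaction was -3.55, -3.85 and -4.99 (adjusted p of 0.000129 or less).

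Of 15 tested genes of MHC class I presentation and the interferon response, 3 rose (20%, against 3.93% of all genes tested) and none fell (median 0.69). H2-D1 had 1102, 1466 and 1179 CPM in young and 3434, 2589, 3790.0 and 3639.8 in aged HS cells (log2 difference 1.43, SE 0.20, edgeR adjusted p = 0.00331), Tapbp, the peptide-loading chaperone, differed by 0.87 and the antiviral membrane protein Ifitm3 by 0.79. Of 12 tested CDK inhibitors and p53 targets, Ccng1 (1.13, adjusted p = 0.0313) and Sesn2 (1.75, adjusted p = 0.022) rose (16.7% of the list, against 3.93% of all genes tested). Cdkn1a, with 98.1, 134 and 135 CPM in young and 345, 128, 210.1 and 158 in aged mice, did not pass the test (0.78, adjusted p = 0.141). Cdkn2a, a marker of senescence, was counted at 3.00, 0.527 and 1.45 CPM against 14.4, 0, 11.1 and 9.29 (adjusted p = 0.151). Of 18 immediate early genes Ier3 (0.97, adjusted p = 0.00624) and Klf4 (0.88, adjusted p = 0.0372) rose (11.1%, against 3.93% of all genes tested). Of 12 heat shock genes Dnaja1 fell (-0.69, adjusted p = 0.0484), which is 8.33% of them, against 2.33% of all genes tested. The calls of Tapbp, Ifitm3, Ccng1, Sesn2, Klf4 and Dnaja1 were each lost without Young A and without at least 1 further mouse (adjusted p up to 0.167), those of H2-D1 and Ier3 were not. None of the 6 proliferation genes tested was called.

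Genes of oxidative phosphorylation and ribosomal proteins showed small differences. Of 78 tested nuclear genes of oxidative phosphorylation 16 had a positive log2 difference, the median was -0.22, and 2 fell (2.56%, against 2.33% of all genes tested), Sdhb (-0.64, edgeR adjusted p = 0.0245) and Ndufc2 (-0.59, adjusted p = 0.0369). Their summed level was 36200 to 39811 CPM in young and 28990 to 33960 in aged HS cells. The 13 mitochondrially encoded genes summed to 44595 to 53405 against 38488 to 43482 CPM, with mt-Nd5 called higher (1.02, adjusted p = 0.0463). That is 7.69% of them, against 3.93% of all genes tested. None of 81 ribosomal protein genes was called, 72 had a positive log2 difference and their median was 0.21. The 26 genes that the study lists as the HS signature, chosen on these same cells, had a median of -0.03 with none called.

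**Figure D4:**
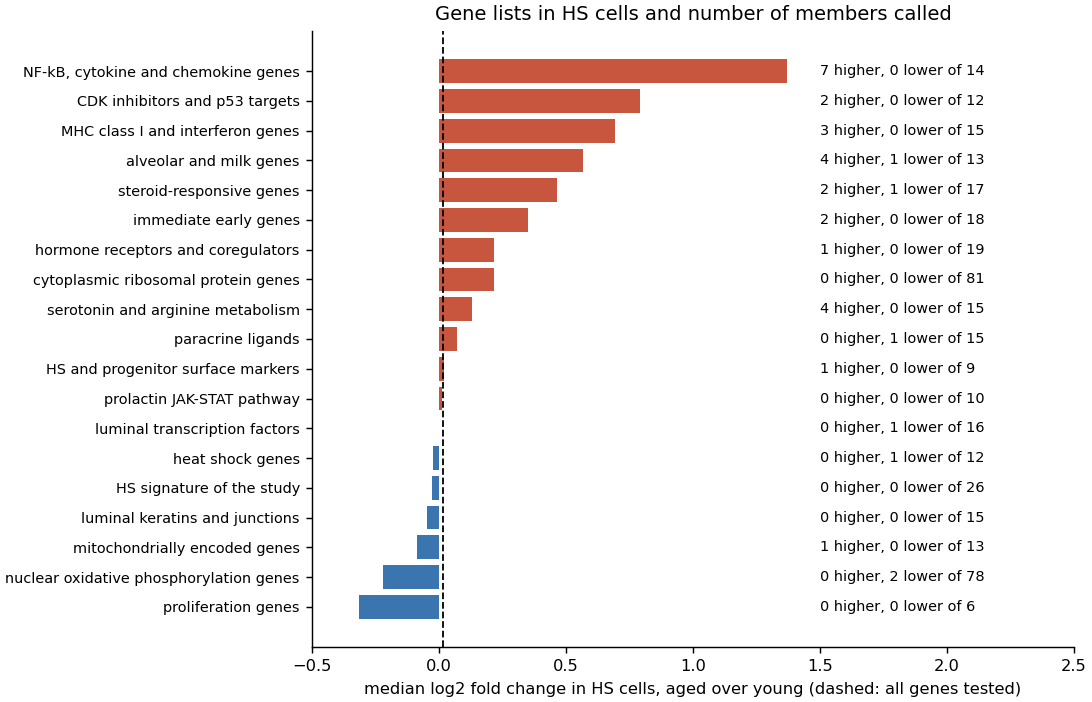
Bars of the median log2 difference, aged over young, in HS cells for 19 gene lists (red above 0, blue below), with the number of members called higher and lower of those tested written at the right. The dashed line at 0.02 is the median of all genes tested, and the bar of NF-kB, cytokine and chemokine genes at 1.37 is the longest of those shown (marker lists of myoepithelial, fibroblast, endothelial and immune cells are not drawn).

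Transcripts of milk and basal genes appeared at low levels in aged HS cells. Of 13 alveolar and milk genes tested 4 rose (30.8%, against 3.93% of all genes tested), Csn1s1, Csn1s2a, Csn2 and Spp1, and Wfdc18 fell (7.69%, against 2.33%). The casein Csn1s1 had no count in young HS cells and 88.8, 1.09, 113 and 46.5 CPM in aged ones (236 UMIs, edgeR adjusted p = 0.0191). Csn2, also without a count in young HS cells, had 83 UMIs, and Csn1s2a 41 against 2 (ratio 45.3, interval 11.8 to 386). Against a floor of 3 counts over the young group, the aged mean was at least 224-fold higher for Csn1s1 and 77.2-fold for Csn2. Aged B, with 1.09 CPM of each, lay far below these means. In the same aged mice HS cells had 2.16% to 5.25% of the Csn1s1 level of AV cells, which averaged 2530.4 CPM. Other AV genes stood at similar percentages of the AV level in aged HS cells. These were 1.12% to 4.32% for Csn3, 0.796% to 3.19% for Trf and 0.924% to 2.88% for Spp1. Not all AV genes did so, since Kit stood at 4.69% to 17.1%. The part that RNA of AV cells had in the calls of milk genes was not tested. Spp1, osteopontin, had 1.00, 0 and 0.483 CPM in young and 53.9, 2.71, 13.8 and 83.6 in aged HS cells (log2 difference 5.94, adjusted p = 0.0149), and the rise of 10.76 in AV cells exceeded it (interaction -4.95, adjusted p = 0.0148). Wfdc18 had 470.4, 144 and 335 CPM against 113, 72.7, 42.8 and 86.3 (-1.99, adjusted p = 0.0138) and fell in AV cells too, by 1.43. The calls of Csn1s1, Csn2, Csn1s2a and Spp1 were lost without Young C (adjusted p up to 0.139), where the fitted difference of Csn1s2a was 7.05 in place of 5.45, and that of Csn1s2a also without Young A or Young B. Summed over all 19 genes of the list, HS cells had 606 to 1130 CPM in young and 416 to 1590 in aged mice, so the totals overlapped.

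Of 4 myoepithelial markers tested 2 rose (50%, against 3.93% of all genes tested) and 1 fell (25%, against 2.33%). Krt14 rose with 9.01, 9.49 and 5.95 CPM in young and 30.4, 29.8, 15.2 and 82.3 in aged HS cells (log2 difference 2.29, edgeR adjusted p = 0.0196), Krt17 rose by 2.37 (adjusted p = 0.0161) and Acta2, smooth muscle actin, fell by 1.54 (adjusted p = 0.0474). The calls were lost without any 1 young mouse for Krt14 (adjusted p up to 0.0952), without Young C for Krt17 (0.0811) and without any 1 mouse but Young C for Acta2 (up to 0.132). Myoepithelial cells averaged 5192 CPM of Krt14 in young and 5219 in aged mice. Summed over 12 markers, HS cells had 38.6 to 86.4 CPM in young and 67.9 to 212 in aged mice, and the part of RNA from myoepithelial cells was not tested.

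A test of the difference itself, age by cell type within the same mice, asked which changes in HS cells differed from those of AV cells. Of 9838 genes in that fit, 174 were called toward higher in HS cells (1.77%) and 63 toward lower (0.640%), together 2.41%. The count was 131 without Young A, 154 without Young B, 83 without Young C and 155 without Aged C, against 237 with all mice. Of the 174 genes, 87 were called lower in AV cells and 52 in neither type. Of the 332 genes called higher in HS cells, 38 were also called in the interaction, and of the 197 called lower 5. The named genes toward higher were Dcn, Napsa (5.58), Upk3a, Agpat4, an acyltransferase of phospholipid synthesis (5.12), Epb41l3 (5.11), Gm9930 (4.76), Pcolce, an enhancer of collagen processing (4.16), and Ddit4l (3.85). Toward lower they were Alox15, Spp1, Fermt1, Gstk1 (-2.15), Gas6, a ligand of TAM receptors (-1.34), and Haghl (-1.33). The age calls in HS cells themselves were lost for Napsa without Young C, for Gm9930 without any 1 young mouse, for Pcolce and Gas6 without Young B or Young C, for Gstk1 without Young A or Young C and for Haghl without any 1 mouse but Aged A (adjusted p up to 0.158), and Napsa, at 3.39, was at 4.22 without Young A. The HS markers appeared in the interaction as well, with Prlr at 2.18 (adjusted p = 2.86e-05), Pgr at 2.96, Prom1 at 2.76, Cited1 at 2.19 and Esr1 at 1.88, and their UMIs in AV cells differed by -2.69, -2.99, -2.08, -1.60 and -1.68, whereas none of them was called in HS cells.

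Against myoepithelial cells 407 of 8480 genes were called toward higher in HS cells (4.80%) and 400 toward lower (4.72%), together 9.52%, and 288 and 284 of them were called in the opposite direction in myoepithelial cells. These counts became 153 and 327 without Young A, 233 and 232 without Young C, and 255 and 239 without Aged D. The named genes toward higher were Dcn, Pcp4 (4.82), Pianp (4.62), Hacd4 (4.22), Il33 (3.71), Clca3a1 (3.62), Ptpn14, a phosphatase (3.40), and 1600014C10Rik (3.28), and toward lower Csf3, Hbb-bs (-4.84), Fermt1, Iars, an aminoacyl tRNA synthetase (-4.02), Cxcl2, Ccl7 (-3.62), Cxcl1 and Igfbp6 (-3.45). The age calls in HS cells were lost for Ccl7 without Aged C or Aged D, for Hacd4 without any 1 mouse but Aged A, for Ptpn14 without any 1 mouse but Aged B and Aged C, and for Iars without any 1 mouse but Young B and Aged B (adjusted p up to 0.132). The age difference of Ptpn14, 2.80, was 3.76 without Young C and 2.07 without Aged D, and that of Ccl7, -2.98, was -4.95 without Aged A.

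The overlap of both interactions with the age comparison left 14 genes called higher and 2 lower in HS cells, named here because of their values. The 2 were Alox15 and Fermt1. The 14 included Kitl, the ligand of the KIT receptor, with 17.4, 12.1 and 12.4 CPM in young and 77.4, 48.8, 106 and 73.0 in aged HS cells (log2 difference 2.42, SE 0.27, edgeR adjusted p = 0.00136). Fst, the activin antagonist follistatin, had 1.67, 1.58 and 1.45 CPM against 31.1, 22.2, 6.91 and 15.9 (3.67, SE 0.46, adjusted p = 0.00199), and 1600014C10Rik had 8.68, 6.86 and 5.63 against 41.0, 231, 122 and 177 (4.36, SE 0.53, adjusted p = 0.00182). Matrix genes were among them besides Dcn, namely the laminin chains Lamb1 (2.24) and Lamc1 (1.76) and Pcolce (1.48), and the others were Ak1 (3.59), Kazn (2.351), Krt17 (2.37), Cd302 (2.06), Efna1, an ephrin (1.35), Spty2d1 (1.05) and Rbms3 (1.00).

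Many changes were shared with other types of the same mice. Of the genes called higher in HS cells and tested in AV cells 72 of 311 were called higher there too (23.2%, against 2.90% of all genes tested in AV cells), and 57 of 190 of those called lower (30%, against 3.26%). In myoepithelial cells the shares were 112 of 256 (43.7%, against 12.8%) and 73 of 155 (47.1%, against 14.8%). The types share mice and libraries, so this is a description. Called in the same direction in AV, myoepithelial, fibroblast and vascular endothelial cells as well were 18 of the 332 genes higher and 9 of the 197 lower in HS cells. In fibroblasts 210 and 130 of those genes were tested. The matching share over all genes was not computed, so these counts only describe. Among the 18 called higher were Atn1 (75 UMIs in aged HS cells, none in young, at least 61.2-fold), BC023719 (125 and none, at least 99.8-fold), Pianp, and Gm10260 with 7.68, 7.91 and 9.33 CPM in young and 2722, 3335, 1822 and 3372 in aged HS cells. In the other direction the second row of the symbol Atn1 had 190 UMIs in young and none in aged HS cells (at least 28.6-fold), and BC018473, which GENCODE lists as antisense, 755 and none (at least 126-fold). The fold bounds of these genes set a group mean against a floor of 3 counts. For these genes the age of the mice and the processing of their libraries cannot be told apart. Other shared genes differed by smaller folds, and age and processing cannot be told apart for them either. The class I gene H2-T23 had 20.4, 49.0 and 39.4 CPM in young and 289, 138, 289 and 259 in aged HS cells. Slc12a2, a sodium, potassium and chloride carrier, had 850.2, 1421 and 1163 against 440.2, 691, 317 and 564.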

How the data were processed

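Mammary cells of 7 mice were profiled by 10x 3′ RNA sequencing with 1 library per mouse. The authors aligned the reads to mm10 and counted UMIs per gene with Cell Ranger 2.0, and they filtered cells on UMIs, on genes (at most 2500) and on the mitochondrial share. The deposited matrix holds raw counts of 27998 genes in 13684 cells. The deposited cell table gives the mitochondrial fraction, cell-cycle scores (a score of phase genes against control genes, by the authors) and the cell type, which defined HS cells and all other types. No cell was filtered further. Doublets were called with Scrublet (expected rate 0.06) and kept.

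UMIs of HS cells were summed per mouse. The mouse was the replicate in every test. Genes were filtered with filterByExpr, scaled by TMM and tested with the quasi-likelihood test of edgeR 4.0.16 (R 4.3.3). Calls needed at least a 1.5-fold difference with an adjusted p (Benjamini-Hochberg) under 0.05. Age by type interactions had the mouse as a block. Shares and medians were compared by exact two-sided permutation, and 9 such measures were adjusted together. Shares of cells with a UMI were computed after thinning each cell to 2000 UMIs. No HS cell was shallower. Python 3.11.15, scipy 1.17.1, scanpy 1.11.5, DESeq2 1.42.0 and the GENCODE M21 annotation were used.

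Genes were named by rule: the HS markers and luminal keratins, Tph1 and Arg1, the 15 called genes with the largest fold in each direction whose groups did not overlap (leaving out ribosomal genes and symbols starting with Gm or ending in Rik), every called member of the gene lists, the 8 genes per direction with the largest called interaction that were also called with age, the 15 genes highest in HS cells relative to AV and myoepithelial cells, and the 10 most variable ones. Exceptions are said in the text. The members, lists and comparisons were chosen with earlier results of these data known. On simulated counts of 8128 genes the age comparison recovered 50% of genes changed 2-fold and 90% of those changed 4-fold, with 6 false calls. Genes of the lowest counts were not among those changed, so these rates do not cover them. The interaction against AV cells recovered 34% and 91%, and that against myoepithelial cells 26% and 95%. Alternatives were other scaling (RLE), DESeq2, no filter, no ribosomal or mitochondrial genes, no doublets, equal totals, a replicate block and each mouse left out.

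The letters A to D were not used as pairs, since the labels tie them to nothing shared and same-letter mice did not deviate together. Transcripts were read at their 3′ ends, so levels are compared between cells and mice and not between genes.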

Additional observations from a re-analysis of the deposited data

Results flagged for a closer look

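In 9 of 97 sets of 4 aged mice that were looked at, 1 mouse stood apart from the other 3 by Dixon's criterion, which chance gives in about 1 set of 20. Aged B was highest for the share of HS cells with a Pgr UMI (23.2%) and for Sbp (1.63 CPM). Aged A was highest for Csf3 (65.3 CPM), Ccl7 (3.79), Pi16 (1.52) and Retnla (5.31), and lowest for Krt19 (5081 CPM). Aged D was highest for Rbp7 (5.31 CPM) and lowest for Arg1 (198 CPM). The values of Sbp, Ccl7, Pi16, Retnla and Rbp7 rest on a few UMIs per mouse.

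The age difference of HS cells was called different from that of AV cells for 14 of the named genes (edgeR interaction, HS minus AV on the log2 scale). Toward higher in HS cells these were Dcn (6.71), Napsa (5.58), Upk3a (5.27), Agpat4 (5.12), Epb41l3 (5.11), Gm9930 (4.76), Pcolce (4.16) and Ddit4l (3.85). Toward lower they were Alox15 (-6.20), Spp1 (-4.95), Fermt1 (-2.44), Gstk1 (-2.15), Gas6 (-1.34) and Haghl (-1.33).

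Against myoepithelial cells it was called different for 16 named genes. Toward higher these were Dcn (5.37), Pcp4 (4.82), Pianp (4.62), Hacd4 (4.22), Il33 (3.71), Clca3a1 (3.62), Ptpn14 (3.40) and 1600014C10Rik (3.28), and toward lower Csf3 (-4.99), Hbb-bs (-4.84), Fermt1 (-4.16), Iars (-4.02), Cxcl2 (-3.85), Ccl7 (-3.62), Cxcl1 (-3.55) and Igfbp6 (-3.45).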

How the results depend on the processing

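Genes called higher and lower with age numbered 332 and 197, and 642 and 573 without a filter on low counts, 153 and 82 with all mice thinned to equal totals, and 116 and 49 with a replicate block on the letters A to C. The letters do not pair the mice (correlations of deviations -0.0915, 0.0660 and -0.0326 for A, B and C, with B alone correlating best with its own letter). Leaving out 1 mouse gave 86 to 354 higher and 48 to 200 lower. DESeq2 called 381 and 193. Interaction calls against AV cells were 237, and 514 without a filter, 90 at equal totals and 83 to 294 without 1 mouse. Against myoepithelial cells they were 807, and 215 at equal totals, 494 by DESeq2 and 465 to 820 without 1 mouse, and without a filter the split of 407 and 400 became 298 and 726. The cause of these shifts was not tested. Of 80 named genes called with age, 35 kept the call under every alternative in which they were tested (not all alternatives for each gene), 45 lost it under at least 1 (27 with the replicate block, 36 without Young C, 4 by DESeq2) and 0 changed direction. The 4 that DESeq2 did not call were Dmbt1, Fermt1, Retnla and Hacd4. Two-sided permutation tests could not pass the threshold without 1 mouse. Leaving out 1 mouse, the difference in percentage points, aged minus young, ranged from -48.4 to -44.6 for the HS share of luminal cells, -46.2 to -39.3 for that of epithelial cells, -6.94 to -0.347 for cells in S or G2M, -12.7 to -4.69 for a Prlr UMI, -6.78 to -3.00 for Pgr, 0.223 to 3.22 for Esr1, 18.9 to 25.1 for Tph1 and 22.8 to 25.9 for Arg1, and in median UMIs from 1593 to 2209. The difference in cells in S or G2M was -4.33, but 0.124 for cells with a Mki67 or Top2a UMI. For Pgr it was -4.10, but 0.707 without thinning, and for Esr1 1.78, but 9.52 without thinning (exact p = 0.029), where aged cells were deeper. Median genes per cell differed by 247 (exact p = 0.029). Fewer HS cells in aged mice limit the precision of their levels, and counts under about 10 CPM rest on few UMIs.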
